A study of Rattus norvegicus with 6 samples.

Results

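The genes described here are the 5 members of the CCN family that the rat count table holds, Ccn1 to Ccn5, and 5 genes that are widely used as readouts of the transcriptional co-activator YAP, namely Ankrd1, Amotl1, Amotl2, Ajuba and Axl. They were chosen by symbol, and 10 of the 10 were among the 14475 genes of the table. The study compared cultured vascular smooth muscle (VSM) cells from the soleus feed artery (SFA), which supplies the soleus muscle, of young and old male Fischer 344 rats. The young group was 3 rats aged 4 months and the old group 3 rats aged 24 months, with no transgene or treatment named for either, and 1 poly(A) RNA library was sequenced from each culture. The cells had been isolated from the artery and grown in serum, so the values describe cells in culture and not the arterial wall. The passage number and substrate of the cultures used for RNA were not given in the sources used here.

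YAP and its paralog TAZ (Wwtr1) have no DNA binding domain of their own and act on genes through the TEAD factors. LATS kinases of the Hippo pathway hold YAP in the cytoplasm, whereas a stiff matrix, stretch and tension on actin fibers allow it into the nucleus, which makes its targets common readouts of mechanical signaling. CCN proteins are secreted matricellular proteins that bind integrins, proteoglycans and growth factors, and VSM cells are a well-known source of several of them. Ccn1 and Ccn2 respond to serum, stretch and YAP, whereas Ccn3 and Ccn5 are mostly known as brakes on smooth muscle proliferation.

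Total counts per library ranged from 44235674 to 59700887, and the 10 genes took between 0.725% and 1.14% of them. Each total was above the range of reads per sample stated in the Methods, so counts are not numbers of sequenced fragments. Levels are given as CPM, counts scaled to the library size after correction by trimmed mean of M-values (TMM), and as these are not divided by transcript length they were compared between libraries and not between genes. The smooth muscle label was checked against 7 markers. Acta2, Myh11, Cnn1, Tagln, Smtn and Lmod1 had at least 64.1 CPM in each library, whereas Des was between 0.298 and 2.99 CPM. The summed level of the 7 markers was 11177 to 20886 CPM in young and 3445 to 5553 CPM in old libraries, and that of 6 fibroblast markers was 243 to 664 CPM in young and 1090.0 to 1994 CPM in old. In libraries of mixed RNA, fewer cells of a type and less RNA per cell cannot be told apart. The summed levels in young and old were 4.01 to 13.6 and 12.7 to 18.2 CPM for 4 of 6 endothelial markers, and 5.13 to 16.0 and 10.4 to 16.8 CPM for 3 of 6 macrophage markers. They were 13.7 to 75.7 and 55.1 to 86.6 CPM for 4 of 5 Schwann cell markers, and 91.8 to 194 and 6.04 to 41.4 CPM for 5 of 8 skeletal muscle markers, where the young sums were mostly Myh1 and Myh2. The remaining markers of those lists (Cdh5, Tie1, Ptprc, Adgre1, Itgam, Sox10, Myod1, Myog and Ckm) did not appear by symbol among the 14475 genes. Nor did Ccn6, Ankrd2, Wwc1 and Junb of the lists below. As 1518 genes carried no symbol, a missing symbol does not show that a gene was not expressed.

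To show what sequence the YAP-TEAD readouts share near their start sites, promoter windows of 300 bases (250 before and 50 after an annotated start) were taken from RefSeq on the assembly GRCr8, which differs from the assembly used for the counts. Windows were matched for 6 of the 10 genes (Ccn1, Ccn2, Amotl1, Amotl2, Ajuba and Axl). Ccn3, Ccn4, Ccn5 and Ankrd1 had no entry. The TEAD core GGAATG was searched on both strands (CATTCC on the other strand) and is in capitals below, in the 4 windows that held it, 5′ to 3′ on the strand of the gene. The windows are Ccn1 at chr2:237225640-237225939 (minus strand), Ccn2 at chr1:22624565-22624864 (minus strand), Amotl2 at chr8:112182376-112182675 (plus strand) and Ajuba at chr15:31999993-32000292 (minus strand).
Ccn1: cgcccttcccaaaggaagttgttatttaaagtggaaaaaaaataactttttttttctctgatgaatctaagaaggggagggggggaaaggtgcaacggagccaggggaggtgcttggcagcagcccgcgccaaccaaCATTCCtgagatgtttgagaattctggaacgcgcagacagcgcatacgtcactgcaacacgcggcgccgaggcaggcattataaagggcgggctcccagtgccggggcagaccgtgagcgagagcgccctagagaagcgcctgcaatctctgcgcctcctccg
Ccn2: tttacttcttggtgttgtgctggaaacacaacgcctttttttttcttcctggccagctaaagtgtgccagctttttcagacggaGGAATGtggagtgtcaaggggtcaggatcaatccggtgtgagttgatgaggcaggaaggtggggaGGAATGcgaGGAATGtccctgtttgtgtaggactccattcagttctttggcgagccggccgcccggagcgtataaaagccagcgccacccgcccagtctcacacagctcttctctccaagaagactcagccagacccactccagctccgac
Amotl2: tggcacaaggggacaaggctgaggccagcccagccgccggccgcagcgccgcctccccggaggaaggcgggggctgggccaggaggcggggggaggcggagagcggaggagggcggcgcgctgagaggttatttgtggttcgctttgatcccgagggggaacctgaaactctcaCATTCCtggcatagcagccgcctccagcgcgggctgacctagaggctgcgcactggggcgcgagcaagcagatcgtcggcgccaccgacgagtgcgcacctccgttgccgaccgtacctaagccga
Ajuba: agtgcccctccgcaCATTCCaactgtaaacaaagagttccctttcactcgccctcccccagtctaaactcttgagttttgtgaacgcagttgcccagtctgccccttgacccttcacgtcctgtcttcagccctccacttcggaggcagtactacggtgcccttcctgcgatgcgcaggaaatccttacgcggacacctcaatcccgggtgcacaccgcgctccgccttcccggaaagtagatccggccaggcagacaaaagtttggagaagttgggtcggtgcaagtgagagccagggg

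The Ccn2 window held 3 matches, which began 166, 101 and 92 bases before the start, all in the orientation of the gene. Ccn1, Amotl2 and Ajuba had 1 match each, in the other orientation, which began 113, 76 and 236 bases before the start. The window of Axl and the 5 windows of Amotl1 held none. Of 33469 windows of the same length in the table, 14.2% held at least 1 match and 0.0956% held 3 or more. The AP-1 motif TGANTCA was found in 2 of the windows of Amotl1, which overlap, and in 7.33% of all windows. The CArG box, the site of serum response factor, was in none of the windows of these genes and in 1.64% of all windows. Matches are descriptions of the letters in a window, and no binding was measured.

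The 10 genes did not move as a block in old VSM cells, where 7 of them were lower (48% of all genes were). Ankrd1, Ccn3 and Ccn1 had the largest differences and were lower in old, by 19.4, 6.67 and 2.42 times as ratios of group means. Amotl2, Ajuba and Ccn4 were lower by smaller amounts, Axl was slightly lower, Amotl1 was slightly higher, and the group means of Ccn2 were nearly equal. Ccn5 had the higher mean in old, by 1.23 times, with overlapping groups. In edgeR's quasi-likelihood test with Benjamini-Hochberg adjustment over 14475 genes, 0 of the 10 met the call rule (adjusted p under 0.05 and a log2 fold change of 1 or more in size), which 0.00691% of all genes met. A log2 fold change of 1 or more in size was found for 3 of the 10 genes and for 11.4% of all genes, and with an adjusted p under 0.1 edgeR gave 2 (Ankrd1 and Ccn3), where 2.63% of all genes passed. At an unadjusted p under 0.05, edgeR gave 5 of the 10 as lower in old and 0 as higher, where 11.5% and 11.2% of all genes were lower and higher. The DESeq2 Wald test, which was the test of the study, called 3 of the 10 (Ankrd1, Ccn3 and Ccn1), all lower in old, where it called 5.48% of all genes and 3.25% as lower. Without the fold threshold it gave 4, the fourth being Amotl2, and 12.2% of all genes. limma-voom called 0 of the 10 and 0% of all genes. All old libraries were lower than all young ones for 5 of the 10 genes (14.7% of all genes) and higher for 1 (14.5%), so the groups were separate for 6 of the 10 (29.2% of all genes). The median log2 fold change of the 10 genes was -0.62, compared with 0.02 over all genes. It was -0.31 without young replicate 3, the library in which 7 of the 10 genes had their highest young value. Of all 14475 genes, 5476 had their highest young value in that library.

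**Figure D1:**
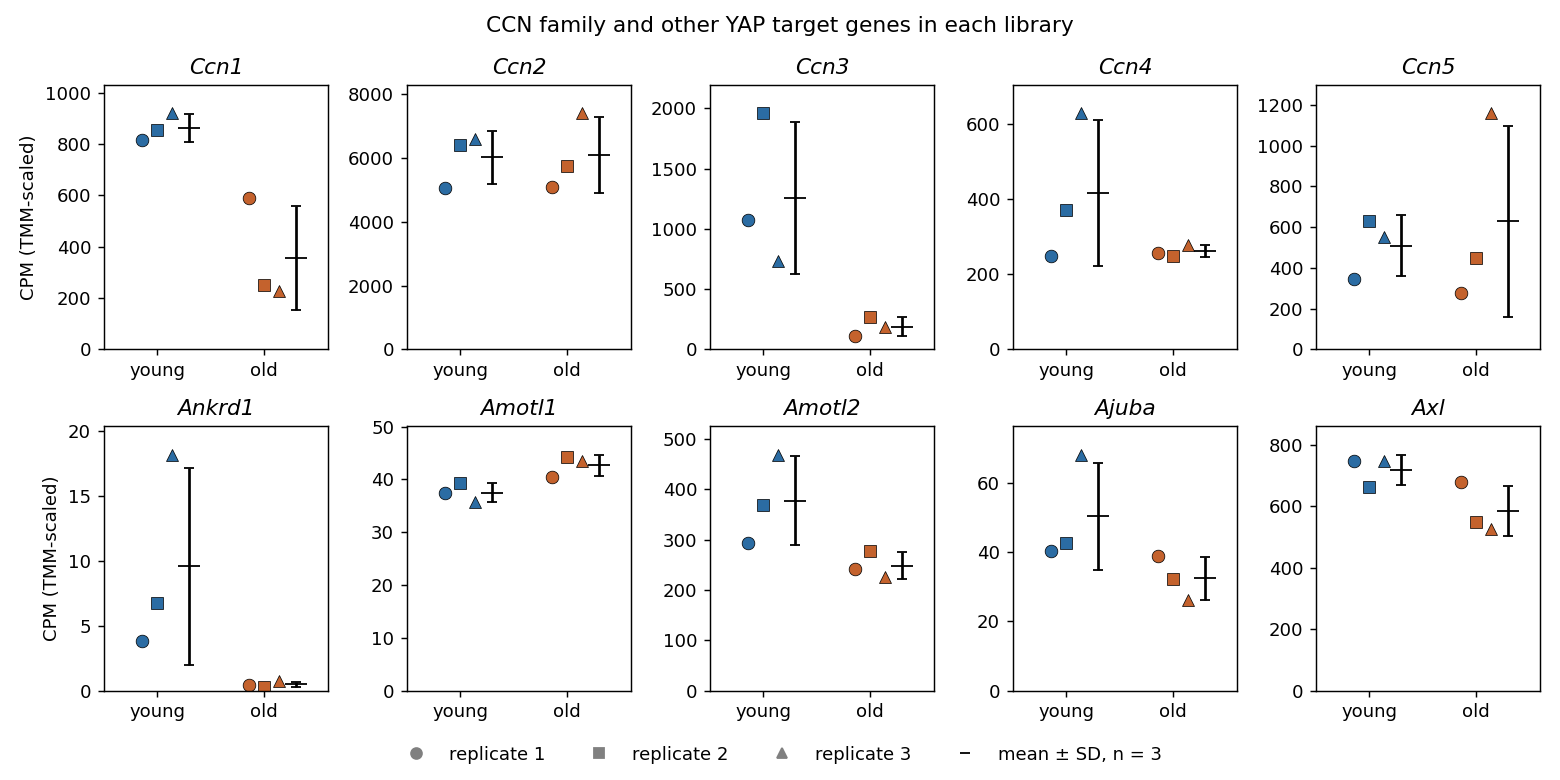
CPM of each of the 10 genes (vertical axes, linear from 0) in the 3 young and 3 old libraries, with the replicate number as the symbol and the mean ± SD (n = 3) as a bar beside the points. Old libraries lay below all young libraries for Ccn1, Ccn3, Ankrd1, Amotl2 and Ajuba and above them for Amotl1, whereas the groups overlapped for Ccn2, Ccn4, Ccn5 and Axl.

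Among the CCN genes, Ccn1 (ENSRNOG00000014350), which encodes a matrix-associated ligand of integrins, was at 814, 855 and 920.0 CPM in young replicates 1, 2 and 3. In old replicates 1, 2 and 3 it was at 591, 252 and 228 CPM. The young libraries were close together (coefficient of variation 6.18%), while old replicate 1 lay between the young libraries and the other old libraries, for a coefficient of variation of 56.8% in old. The log2 fold change was -1.27 (standard error, SE, 0.38, adjusted p = 0.137 from edgeR, 0.0108 from DESeq2). Without old replicate 1 it was -1.85 and passed in edgeR (adjusted p = 0.0262), in a fit that called 732 of 14475 genes. When any of the other 5 libraries was left out, it was -1.32 to -1.03 in edgeR and -1.32 to -1.04 in DESeq2, which lost its call of Ccn1 in these fits, with adjusted p from 0.0544 to 0.0904.

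Ccn2 (ENSRNOG00000015036), also known as connective tissue growth factor, is a target of both YAP and TGF-β and had the window with 3 TEAD matches. It was at 5062, 6403 and 6602 CPM in the young libraries and at 5088, 5767 and 7409 CPM in the old libraries. The groups overlapped, and old replicate 3 was above every young library. The means were 6023 ± 838 CPM in young and 6088 ± 1193 CPM in old (SD, n = 3 each), with a log2 fold change of 0.02 (95% interval -0.54 to 0.57, adjusted p = 0.975 from edgeR).

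Since Ccn1 and Ccn2 are usually read as a pair, their counts were also set against each other within each library, a ratio that needs no scaling between libraries and that was chosen after the values had been seen. There were 16.1, 13.4 and 13.9 counts of Ccn1 per 100 counts of Ccn2 in the young libraries and 11.6, 4.37 and 3.08 in the old libraries. The old libraries lay below the young, and the exact permutation test of 3 against 3 gave p = 0.1 (two-sided), the smallest value this design allows. Levels of the upper gene already separated the groups, so this p is not a separate test. The same held for Ccn3, with 11.2 to 30.6 counts per 100 of Ccn2 in young and 2.17 to 4.62 in old. Ankrd1 had 0.0748 to 0.275 counts per 100 of Ccn2 in young and 0.00534 to 0.00957 in old.

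**Figure D2:**
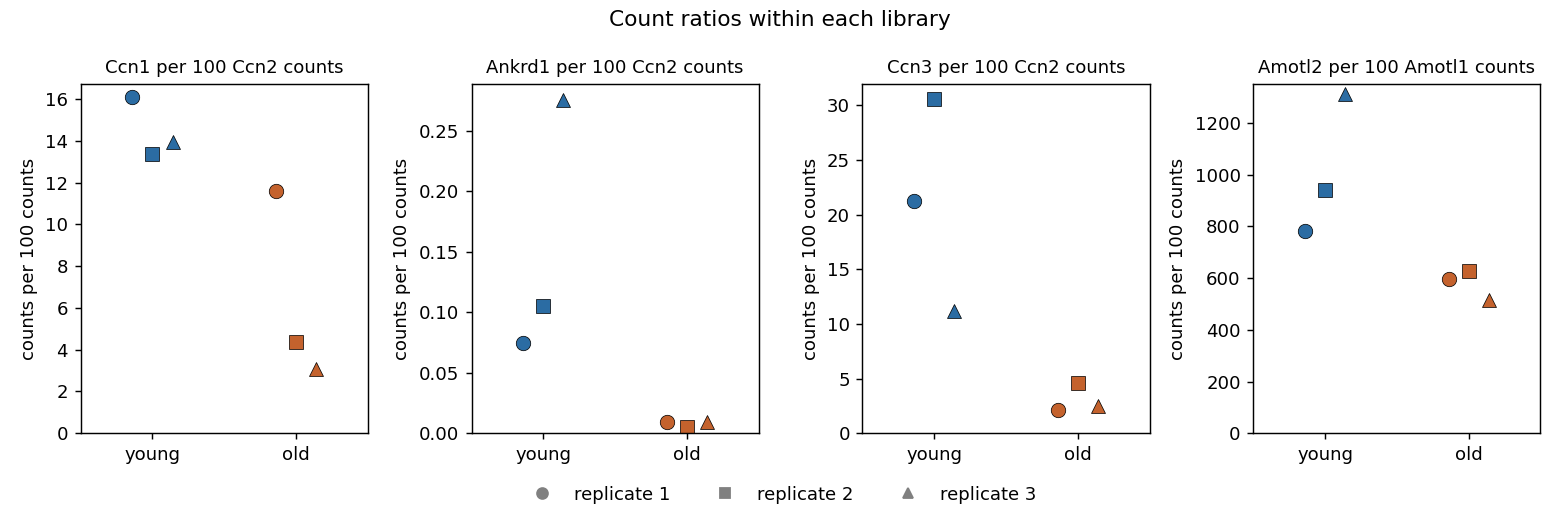
Counts of one gene per 100 counts of another in the same library, for Ccn1, Ankrd1 and Ccn3 against Ccn2 and for Amotl2 against Amotl1 (vertical axes linear from 0), with symbols for the replicate number. In each panel the old points are all lower than the young points, with old replicate 1 nearest to young for Ccn1, at 11.6 counts per 100 of Ccn2.

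Ccn3 (ENSRNOG00000008697), formerly Nov, is the CCN gene linked to growth restraint and to binding of Notch1. It was at 1075, 1958 and 736 CPM in young and at 111, 267 and 188 CPM in old libraries. The lowest young library was above the highest old library, although both groups varied, by 50.2% and 41.5% of their means. Its log2 fold change was -2.74 (SE 0.47, adjusted p = 0.0638 from edgeR, 4.97e-08 from DESeq2). Leaving out 1 library at a time gave values from -3.08 to -2.26. Without old replicate 1, Ccn3 was at -2.47 and passed in edgeR (adjusted p = 0.0446), where 732 of 14475 genes passed. DESeq2 called Ccn3 in 6 of 6 fits with 1 library left out, with adjusted p from 6.93e-09 to 1.89e-05.

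Ccn4 (ENSRNOG00000007078), formerly Wisp1 and named for its induction by Wnt1, had 247, 370.1 and 628 CPM in young libraries and 258, 248 and 278 CPM in old libraries. Young replicate 1 was as low as the old libraries and the groups overlapped. Its log2 fold change was -0.67 (95% interval -1.45 to 0.11, adjusted p = 0.268 from edgeR), and without young replicate 3 it was -0.24. Ccn5 (ENSRNOG00000010666), which lacks the C-terminal domain of the other CCN proteins, had 343, 631 and 552 CPM in young and 278, 449 and 1158 CPM in old libraries. The lowest and the highest of all 6 values were both in old. The log2 fold change of 0.30 (95% interval -0.98 to 1.59, adjusted p = 0.753 from edgeR) became -0.49 without old replicate 3.

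Ankrd1 (ENSRNOG00000018598) encodes a stretch-responsive ankyrin repeat protein of striated and smooth muscle that binds titin at the sarcomere and is also found in the nucleus. It had 171, 405 and 893 counts (3.79, 6.73 and 18.2 CPM) in the young libraries. In the old libraries it had 23, 16 and 38 counts (0.462, 0.308 and 0.709 CPM). Every old library was well below every young one, and young replicate 3 was the highest. The log2 fold change was -4.27 (SE 0.70, 95% interval -5.95 to -2.59, adjusted p = 0.0600 from edgeR, 1.68e-09 from DESeq2). Left out in turn, the libraries gave values from -4.66 to -3.41, the weakest of them without young replicate 3, and DESeq2 called Ankrd1 in 6 of 6 such fits. The group means were 9.57 ± 7.60 CPM in young and 0.493 ± 0.202 CPM in old (SD, n = 3 each).

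**Figure D3:**
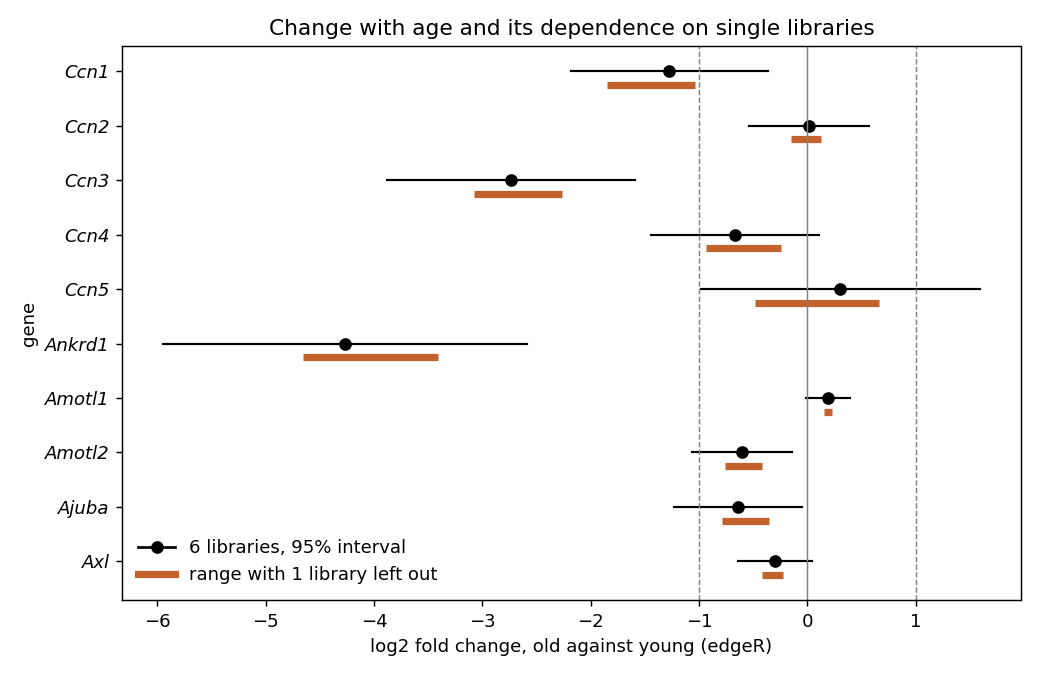
Log2 fold change of each gene in old against young VSM cells (horizontal axis) from edgeR with its 95% interval (black), and the range of the same value with 1 library left out in turn (orange); dashed lines mark an absolute log2 fold change of 1. Ankrd1 (-4.27), Ccn3 (-2.74) and Ccn1 (-1.27) lay beyond the dashed lines, and the orange ranges of Ccn2 and Ccn5 crossed 0.

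The angiomotin-like genes encode scaffold proteins that bind YAP and retain it outside the nucleus, and Amotl2 is at the same time induced by YAP. Amotl2 (ENSRNOG00000008487) was at 293, 369 and 469 CPM in young and at 242, 277 and 225 CPM in old libraries, with no overlap. Its log2 fold change was -0.60 (SE 0.19, adjusted p = 0.153 from edgeR), and its adjusted p of 0.0412 from DESeq2 met the p threshold but not the fold threshold. Amotl1 (ENSRNOG00000008990) was the most even of the 10 genes among young replicates, at 37.5, 39.2 and 35.8 CPM in young and 40.4, 44.2 and 43.5 CPM in old. It was also the one gene whose old libraries all lay above the young, by a log2 fold change of 0.19 (95% interval -0.02 to 0.39, adjusted p = 0.243 from edgeR). As a description chosen after the values had been seen, Amotl2 counts per 100 Amotl1 counts were 781, 940.0 and 1312 in young and 597, 628 and 517 in old libraries. The ratio separates the groups because its terms already do.

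Ajuba (ENSRNOG00000012791) encodes a LIM protein of cell junctions that restrains LATS kinases. It was at 40.3, 42.7 and 68.2 CPM in young and 38.8, 32.3 and 26.1 CPM in old libraries. The groups did not overlap, but old replicate 1 was within 2 CPM of the lowest young library. The log2 fold change of -0.64 (SE 0.25, adjusted p = 0.200 from edgeR) was -0.36 without young replicate 3. Axl (ENSRNOG00000020716), a receptor tyrosine kinase for Gas6 that is abundant in VSM cells, was at 747, 663 and 749 CPM in young and 679, 550 and 526 CPM in old libraries. Old replicate 1 lay within the young range. The log2 fold change of Axl was -0.30 (95% interval -0.64 to 0.04, adjusted p = 0.260 from edgeR).

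Libraries of one age group also differed from each other. Young replicate 1 was the lowest and young replicate 3 the highest of the young libraries for 6 of the 10 genes (Ccn1, Ccn2, Ccn4, Ankrd1, Amotl2 and Ajuba), or 60%, compared with 21.1% of all genes. The same order was found for 6 of the 7 smooth muscle markers and for 0 of the 6 fibroblast markers. Acta2, for example, was at 4972, 7585 and 10381 CPM in young replicates 1, 2 and 3. Of the old libraries, old replicate 1 was the highest for 3 of the 10 genes (Ccn1, Ajuba and Axl), near the 36.1% of all genes, and the lowest for 4 (Ccn2, Ccn3, Ccn5 and Amotl1), where 36.7% of all genes were. It was the highest old library for 5 of the 7 smooth muscle markers and the lowest for 5 of the 6 fibroblast markers. The part of the smooth muscle and fibroblast markers in the age difference of Ankrd1, Ccn3 and Ccn1 was not tested.

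**Figure D4:**
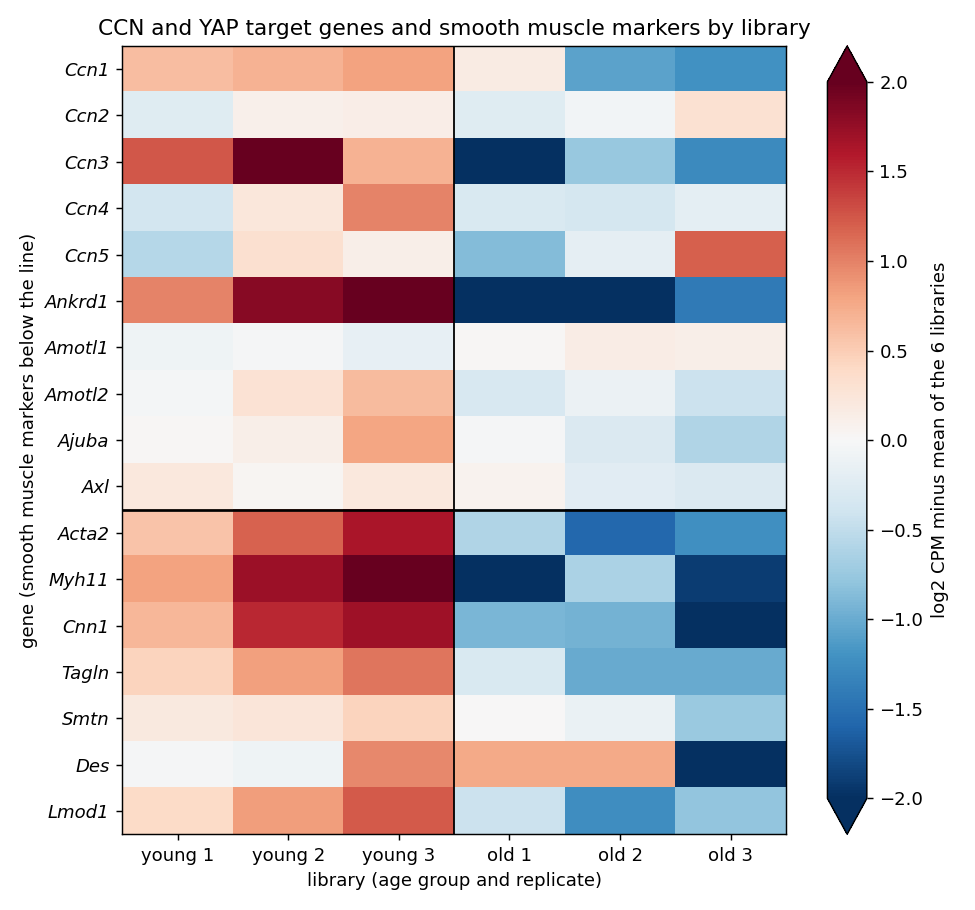
Log2 CPM of the 10 genes (above the line) and the 7 smooth muscle markers (below it) in each library (columns), as the difference from the mean of the 6 libraries in red (higher) or blue (lower), with the color scale ending at 2. Ankrd1, Ccn3 and Ccn1 and the markers other than Des were higher in the young libraries, and Ccn2 and Amotl1 stayed near the middle of the scale.

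Over the 6 libraries, the genes most like a member were taken as those with the highest Pearson correlation of log2 CPM among 11435 other genes with a symbol and an average of at least 1 CPM. With 6 points that share libraries and age groups, many genes reach a high value by the search alone. For Ccn1 they were Kpna4 (r = 0.997), Rapgef6 (r = 0.997) and Agk (r = 0.995). For Ccn2 they were Clip1 (r = 0.987), Mrrf (r = 0.981) and Tgfbrap1 (r = 0.975). Sema4g (r = 0.992), Gask1b (r = 0.991) and Sox13 (r = 0.990) were most like Ccn3, and Shroom4 (r = 0.996), Jkamp (r = 0.993) and Nup188 (r = 0.991) most like Ankrd1. No gene appeared for more than 1 of these 4 members.

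Other genes in common use as YAP readouts were divided in direction. Of 21 such genes, 14 were lower and 7 higher in old, and the median of their log2 fold changes was -0.16. In edgeR 0 passed the thresholds. At an unadjusted p under 0.05, 6 were lower and 2 higher in edgeR, where 11.5% and 11.2% of all genes were. DESeq2 called 3 as lower (Crim1, Edn1 and Tgfb2) and 1 as higher (Gadd45a). Of all genes, DESeq2 called 3.25% as lower and 2.23% as higher. Without the fold threshold DESeq2 gave 4 as lower, adding Arhgef17, and 2 as higher, adding Ccdc80, where 12.2% of all genes passed. The log2 fold change in DESeq2 was -0.56 for Arhgef17 (adjusted p = 0.00195) and 0.94 for Ccdc80 (adjusted p = 0.00225).

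The largest difference was that of Tgfb2, a TGF-β ligand, at 109, 286 and 521 CPM in young and 39.3, 59.7 and 66.0 CPM in old libraries. Its log2 fold change was -2.47 (SE 0.56, adjusted p = 0.0948 from edgeR, 5.93e-05 from DESeq2). Edn1, which encodes the vasoconstrictor endothelin-1, was at 34.4, 62.6 and 122 CPM in young and 18.1, 10.5 and 15.7 CPM in old, a log2 fold change of -2.31 (adjusted p = 0.0802 from edgeR, 2.75e-05 from DESeq2). Both were separated between the age groups, with the highest value in young replicate 3. Crim1, a transmembrane protein with cysteine-rich repeats, was at 215, 304 and 459 CPM in young and 110.2, 86.7 and 78.7 CPM in old. Its log2 fold change was -1.83 (SE 0.29, adjusted p = 0.0600 from edgeR, 3.76e-07 from DESeq2), and the groups did not overlap.

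Nuak2, a kinase related to AMPK, had a log2 fold change of -1.01 (adjusted p = 0.216 from edgeR). In the opposite direction, Gadd45a, a growth arrest and DNA damage gene, was at 30.2, 51.7 and 27.7 CPM in young and 73.0, 106 and 208 CPM in old libraries. All old libraries were above the young ones, and the log2 fold change was 1.82 (SE 0.44, adjusted p = 0.105 from edgeR, 0.000744 from DESeq2).

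Paralogs and partners of the 10 genes were divided in direction. Of 8 such genes in the table (Amot, Limd1, Wtip, Ankrd23, Tyro3, Mertk, Gas6 and Pros1), 4 were lower and 4 higher, with log2 fold changes between -0.86 and 0.68. edgeR and DESeq2 each called 0. At an unadjusted p under 0.05 edgeR gave Amot and Tyro3 as lower and Pros1 as higher. Of all genes, 11.5% were lower and 11.2% higher at that p. Amot, Tyro3 and Pros1 are named, as is Gas6 below, after their values were seen. Amot, the founding angiomotin, had 81.7 ± 30.0 CPM in young and 46.1 ± 10.8 CPM in old (SD, n = 3 each, adjusted p = 0.176 from edgeR). Gas6, the ligand of Axl, was at 522, 694 and 703 CPM in young and 366, 639 and 2059 CPM in old, so that old replicate 3 alone was high.

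Among 10 receptors and co-receptors of CCN proteins, 8 were lower and 2 higher in old, the median log2 fold change was -0.44, and edgeR called 0. At an unadjusted p under 0.05 in edgeR, 3 were lower and 1 was higher, where 11.5% and 11.2% of all genes were. DESeq2 called 1 of the 10 as lower, Notch1, which binds Ccn3, where it called 3.25% of all genes as lower. Without the fold threshold DESeq2 gave 2 as lower (Notch1 and Itgb1) and 1 as higher (Lrp1), where 12.2% of all genes passed. The log2 fold change in DESeq2 was -0.86 for Itgb1 (adjusted p = 0.0487) and 0.85 for Lrp1 (adjusted p = 0.0235). Notch1 was at 6.29, 7.20 and 23.5 CPM in young and 2.33, 2.50 and 5.80 CPM in old libraries. The log2 fold change of Notch1 was -1.80 (SE 0.63, adjusted p = 0.177 from edgeR, 0.0281 from DESeq2).

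Of 17 genes of the Hippo pathway core, 13 were lower and 4 higher, with a median of -0.16, and neither edgeR nor DESeq2 called any. At an unadjusted p under 0.05, edgeR gave 6 as lower and 0 as higher, where 11.5% and 11.2% of all genes were. An adjusted p under 0.05 without the fold threshold was found in DESeq2 for 3, all lower (Yap1, Tead1 and Tead3), where 12.2% of all genes passed. Yap1 itself was at 266 ± 6.74 CPM in young and 227 ± 9.50 CPM in old (SD, n = 3 each). Its log2 fold change was -0.23 (adjusted p = 0.199 from edgeR, 0.0452 from DESeq2). That of Wwtr1 was -0.17 (adjusted p = 0.463 from edgeR, 0.502 from DESeq2) and that of Tead1, a DNA-binding partner of both, was -0.75 (SE 0.17, adjusted p = 0.0992 from edgeR, 0.00463 from DESeq2), at 118 to 135 CPM in young and 55.6 to 84.0 CPM in old. Lats2, a kinase that is both a YAP target and its inhibitor, had a log2 fold change of -0.36 (adjusted p = 0.173 from edgeR, 0.0823 from DESeq2).

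Because Ccn1 and Ccn2 are also serum-induced immediate early genes, 12 other genes of that class were examined, of which 6 were lower and 6 higher, with a median log2 fold change of 0.01. edgeR and DESeq2 each called 0 of them. In edgeR 1 was lower and 2 were higher at an unadjusted p under 0.05, where 11.5% and 11.2% of all genes were. Without the fold threshold DESeq2 gave 2, both higher in old (Fosl2 and Jund), where 12.2% of all genes passed. Fos was at 2.44, 2.34 and 6.00 CPM in young and 7.58, 2.33 and 1.40 CPM in old libraries. Egr1 was at 32.3, 46.4 and 131 CPM in young and 154, 18.4 and 29.0 CPM in old. For both, young replicate 3 and old replicate 1 were the highest of their groups, and the groups overlapped.

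**Figure D5:**
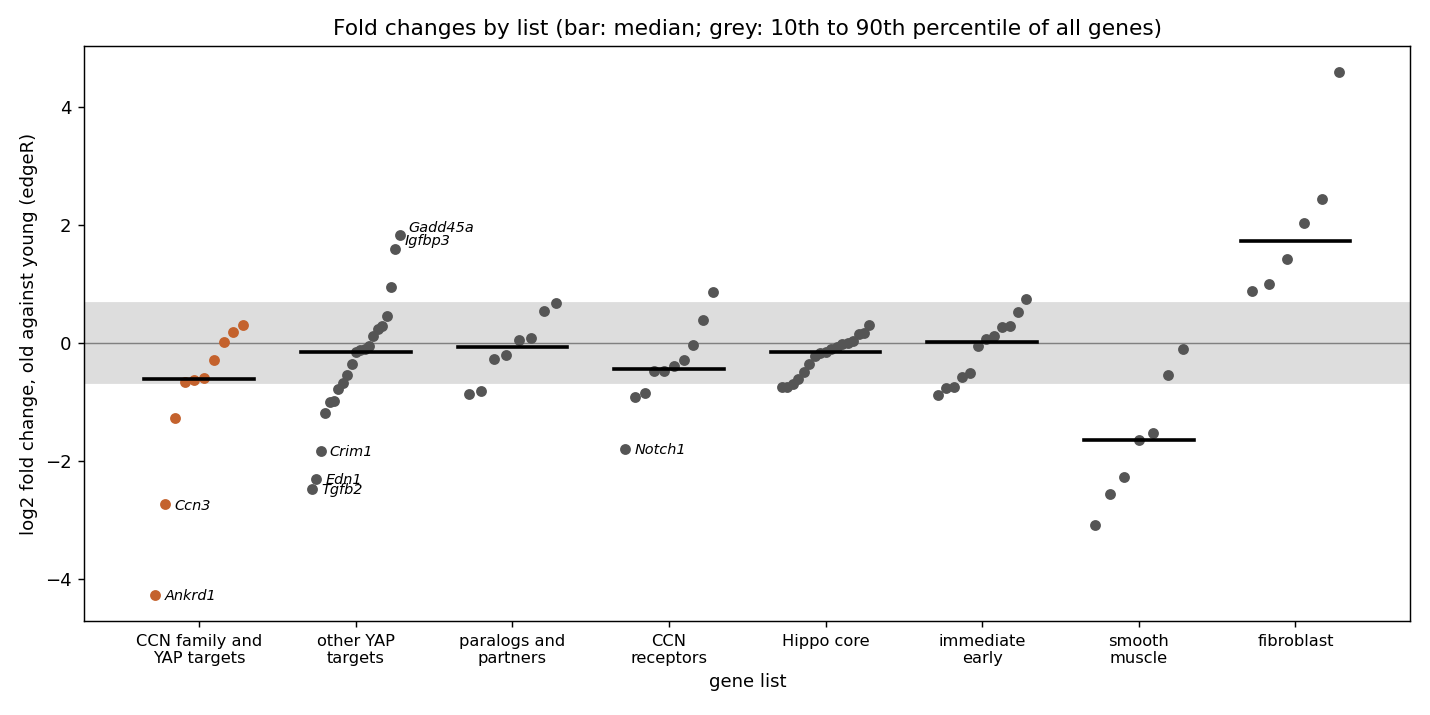
Log2 fold change of each gene in old against young VSM cells (vertical axis, edgeR) by gene list, with the median of a list as a bar and the 10th to 90th percentile of all 14475 genes (-0.69 to 0.67) in grey. Medians were -0.62 for the CCN and YAP target genes, -0.16 for other YAP targets, -0.16 for the Hippo core, 0.01 for immediate early genes, -1.64 for smooth muscle markers and 1.72 for fibroblast markers.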

How the data were processed

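RNA of cultured SFA VSM cells of 3 young and 3 old rats was sequenced, with 1 stranded library for each culture. The values deposited by the authors are raw counts per gene. Per the submitters' processing notes and the Methods, reads were trimmed (cutadapt 3.5, Trim Galore 0.6.7), aligned to Rnor 6.0 with STAR 2.7.10b and counted with featureCounts (Subread 2.0.8). How strand, multi-mapping reads and mates were handled was not given in the sources used here. The Methods name a RefSeq annotation, whereas the deposited counts carry Ensembl gene identifiers, and this difference was not resolved. Between 68.7% and 71.1% of counts from 1 to 19 were even, as counting both mates would leave. Total counts also exceeded the reads per sample stated in the Methods. Low counts are therefore less precise than their size implies. All 14475 genes had at least 10 counts in 3 libraries or more and were tested without a further filter.

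Old was compared with young in edgeR 4.0.16 (TMM, quasi-likelihood F test, Benjamini-Hochberg) in R 4.3.3, with thresholds of 0.05 on the adjusted p and 1 on the size of the log2 fold change. The SE of a log2 fold change is its size over the square root of F. Intervals use the degrees of freedom of the test. DESeq2 1.42.0 (Wald test, default settings, 853 genes left without an adjusted p) and voom in limma 3.58.1 were alternatives, as were other filters and scalings, halved counts, a replicate block, other thresholds and leaving out each library. DESeq2 with libraries left out or with independent filtering at 0.05 was added after seeing the data. The steps were tested on simulated data. The genes and lists were chosen with earlier results of these data known. Genes outside the 10 were named where the unadjusted p was under 0.05 and the absolute log2 fold change at least 1, up to 6 per list, with Yap1, Wwtr1, Tead1, Lats2, Fos and Egr1. Other genes outside this rule were named after their values were seen. Among them were Amot, Tyro3, Pros1, Gas6, Tead3, Fosl2, Jund, Itgb1, Lrp1, Arhgef17 and Ccdc80. Of the planned lists, 2 genes were taken out and are not reported here. Lats2 stood in both the Hippo and the YAP target list, and Des in both muscle lists. Each library is a culture from a different rat, and p-values measure the spread between these cultures.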

Additional observations from a re-analysis of the deposited data

How the results depend on the processing

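The count of 0 of the 10 genes called in edgeR stayed 0 with other filters, RLE factors, library size only, limma-voom, halved counts, the replicate block and no fold threshold. At an adjusted p under 0.1 it was 2 (and 3 of 21 other YAP targets), with DESeq2 3 (and 4), also with independent filtering at 0.05. With each library left out it was 0 to 2 in edgeR (other YAP targets 0 to 3), the 2 being Ccn1 and Ccn3 without old replicate 1, and 2 to 3 in DESeq2 (other YAP targets 4 to 6, paralogs and partners 0 to 1). The median log2 fold change of the 10 genes was -0.77 to -0.31 with a library left out in edgeR and -0.78 to -0.32 in DESeq2. Signs reversed for Ccn2 and Ccn5 only. Ccn2 went from -0.15 to 0.13 in edgeR (-0.10 without young replicate 1, -0.15 without old replicate 3) and -0.16 to 0.12 in DESeq2 (-0.11 and -0.16). Ccn5 went from -0.49 to 0.66 and from -0.50 to 0.65, negative without old replicate 3. The cause was not tested. Over all genes, calls numbered 1 in edgeR, 381 at an adjusted p under 0.1, 793 in DESeq2 (805 with filtering at 0.05) and 0 in limma-voom. Without old replicate 1 edgeR called 732, and 0 to 5 without any other library. DESeq2 called 1377 of all genes without old replicate 1, and 551 to 731 without any other library.

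Whether the replicate numbers pair the libraries was not tested. Deviations of libraries with the same number correlated at 0.06, 0.32 and 0.31. Those of libraries with different numbers correlated at -0.46 to 0.35, the highest being young replicate 1 with old replicate 2. With the replicate block, 0 of the 10 genes were called and their median was -0.57, and 0 other YAP targets and 0 paralogs and partners were called. Ankrd1 had the fewest counts of the 10 genes in old libraries (16 to 38), and halving all counts left the SE of its log2 fold change at 0.70.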
